A study of Mus musculus with 2 samples.

Results

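Mir322, Mir503, Mir351 and Mir542 are 4 microRNA hairpins of 1 cluster on the mouse X chromosome. They were taken by gene name from the GENCODE M21 annotation, and make up 4 of the 2202 microRNA genes in the tables. Their levels were read in adrenal gland tissue of male B6CASTF1/J mice at 25 days of age, an F1 cross between the inbred strains C57BL/6J and CAST/EiJ, with no treatment and no second group. There were 2 libraries of this 1 group, made by microRNA sequencing of RNA under 30 bases. In the labels the animals carry different numbers under a shared donor entry, so each SD, and each test between the libraries, reflects how these libraries differ, and part of that may be technical.

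MicroRNA hairpins are cut from a longer primary transcript, and 1 strand of the hairpin is loaded into the Argonaute protein and guides it to messenger RNAs through the seed, bases 2 to 8 of the mature sequence. Hairpins of a cluster can share a primary transcript and still differ in how well each is cut, loaded and kept. Products of Mir322 and Mir503 are known from cells that leave the cell cycle, with the phosphatase Cdc25a, cyclins and the Igf1 receptor among their reported targets. In human cancer cells the 3p product of Mir542 has been reported to target the apoptosis inhibitor survivin. In the adrenal gland a cortex that makes steroids surrounds a medulla of chromaffin cells, which make catecholamines. A male mouse has a single X chromosome, from its mother, and by the naming convention of hybrid strains the mother here was C57BL/6J.

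The mature sequences show which hairpins can read the same targets. Those of the 4 members are given 5′ to 3′ from RefSeq (GRCm38.p6, X chromosome, minus strand), with the seed in capitals.
miR-322-5p: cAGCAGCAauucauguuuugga
miR-322-3p: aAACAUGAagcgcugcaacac
miR-503-5p: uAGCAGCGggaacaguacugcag
miR-503-3p: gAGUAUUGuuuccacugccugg
miR-351-5p: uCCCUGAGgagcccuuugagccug
miR-351-3p: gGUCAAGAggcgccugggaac
miR-542-5p: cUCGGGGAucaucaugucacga
miR-542-3p: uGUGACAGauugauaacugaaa

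The 5p seeds of Mir322 and Mir503 are the same over bases 2 to 7 and differ at base 8. Aligned from the first base without gaps, miR-322-5p and miR-503-5p were identical at 11 of 22 positions, and at 5 of the 14 positions after base 8. Hairpins on other chromosomes carry the same 7-base seeds as miR-322-5p (the miR-15 and miR-16 type) or miR-351-5p (the miR-125 type), and their mature sequences are shown for that comparison.
miR-15a-5p: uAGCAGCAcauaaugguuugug
miR-16-5p: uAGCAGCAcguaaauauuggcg
miR-497a-5p: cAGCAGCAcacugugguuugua
miR-125a-5p: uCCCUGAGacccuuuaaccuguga
miR-125b-5p: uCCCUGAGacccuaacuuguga

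Against miR-322-5p, miR-15a-5p and miR-497a-5p were each identical at 15 of 22 positions and miR-16-5p at 12 of 22. Past base 8, miR-351-5p and miR-125a-5p had little in common, with 2 of 16 positions identical. Neither seed of Mir542 occurred in another detected hairpin. The 5p seed is shared with Mir6966, which had 3 counts in replicate 1 and 0 in replicate 2, and no other RefSeq mature sequence placed in these genes had the 3p seed.

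The hairpins below show both mature arms in capitals within the RefSeq precursor, for Mir322, Mir503 and Mir542. The precursor of Mir351 is not shown. The tables count reads per hairpin, so the arms cannot be told apart in any value that follows.
Mir322: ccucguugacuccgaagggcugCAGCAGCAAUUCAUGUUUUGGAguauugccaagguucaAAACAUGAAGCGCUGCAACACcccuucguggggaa
Mir503: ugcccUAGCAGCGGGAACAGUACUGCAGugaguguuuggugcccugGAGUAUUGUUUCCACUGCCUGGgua
Mir542: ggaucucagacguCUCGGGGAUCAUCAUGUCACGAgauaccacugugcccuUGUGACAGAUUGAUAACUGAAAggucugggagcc

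All 4 hairpins lie on the minus strand within 4947 bases (mm10). Mir322 (ENSMUSG00000065418.1) comes first in the direction of transcription, at chrX:53054255-53054349. Mir503 (ENSMUSG00000076122.1) follows after 200 bases, at chrX:53053984-53054054, and Mir351 (ENSMUSG00000065503.1) after a further 630 bases, at chrX:53053255-53053353. Mir542 (ENSMUSG00000076140.1) lies 3767 bases beyond Mir351, at chrX:53049403-53049487. None of the 4 overlaps an annotated transcript of another gene on either strand in GENCODE M21. The nearest gene upstream on the same strand is the noncoding C430049B03Rik, which ends 696 bases before Mir322, and the lincRNA Gm28730 lies between Mir351 and Mir542. Within 10 kb on the same strand 3 more hairpins are annotated, Mir450-2, Mir450-1 and Mir450b, and with them the cluster spans 6353 bases.

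Replicate 1 held 3588361 counts on the sense strand of microRNA genes and replicate 2 held 4541373. Levels are counts per 1000000 of these (CPM). They are not divided by hairpin length, since reads come from mature products, which are 21 to 24 bases long in these 4 hairpins. A count of 0 allowed up to 0.836 CPM in replicate 1, and in replicate 2 up to 0.661 CPM. Of the 2202 genes 352 had at least 10 counts in both libraries, called detected here, and all 4 members were among them. The libraries stand apart in Mir122, the dominant liver microRNA, at 0.0892% of counts in replicate 1 and 19.8% in replicate 2. Since it takes up part of the total, the tests of the members and the marker sums are given also with Mir122 out of the totals, and levels are otherwise on the full totals. Intervals are exact at 95%. Like the limits for a count of 0 they cover counting error alone, because no molecular identifiers separate the original molecules from their PCR copies.

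Mir322 was by far the most abundant of the 4, and the order Mir322, Mir351, Mir542, Mir503 was the same in both libraries. Together the 4 hairpins held 3.10% of sense counts in replicate 1 (3.08 to 3.11) and 2.14% in replicate 2 (2.12 to 2.15), a mean of 2.62% ± 0.679 (SD, n = 2). Mir322 supplied 92.5% of these counts in replicate 1 (92.3 to 92.6) and 89.0% in replicate 2 (88.8 to 89.2). Without Mir322 the other members held 0.232% in replicate 1 and 0.235% in replicate 2, so on the full totals the difference in the cluster's share was carried by Mir322. With Mir122 out of the totals Mir322 was still higher in replicate 1, but each of the other members was lower there.

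Mir322, whose 5p arm has the miR-15 type seed, had 102730 counts in replicate 1 and 86301 in replicate 2. Its level was 28629 CPM in replicate 1 (28456 to 28802) against 19003 CPM in replicate 2 (18878 to 19129), a mean of 23816 CPM ± 6806 (SD, n = 2). It ranked 14 among the detected genes by mean level, 13 in replicate 1 and 15 in replicate 2. The hairpins next to it in that order were Mir139, with 25866 CPM in replicate 1 against 23158 CPM in replicate 2, and Mir10b, with 31263 CPM in replicate 1 against 10544 CPM in replicate 2. Both ranges overlap that of Mir322, so the rank is not set beyond the spread of these libraries. This rank and those of the other members are also by unique counts. Of the 352 detected genes 85 share 20 bases with another hairpin, and their counts can be minimum values.

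Mir351, whose 5p arm has the miR-125 type seed, was the second of the 4, with 6399 counts in replicate 1 and 7809 in replicate 2. Its level was 1783 CPM in replicate 1 against 1720 CPM in replicate 2, a mean of 1751 CPM ± 45.1 (SD, n = 2), rank 56. The neighbours in rank were Mir34c at a mean of 1854 CPM and Mir423 at 1659 CPM. Both overlapped Mir351 in range.

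Mir542 had 1275 counts in replicate 1 and 2003 in replicate 2, or 355 CPM in replicate 1 against 441 CPM in replicate 2. The mean was 398 CPM ± 60.6 (SD, n = 2), rank 114, between Mir467d at 406 CPM and Mir341 at 384 CPM. The values of Mir542 lay inside the ranges of both of these hairpins.

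Mir503, which differs from Mir322 at the last base of the seed, was the lowest of the 4, although it is the nearest to Mir322 on the chromosome. It had 661 counts in replicate 1 and 847 in replicate 2. Its level was 184 CPM in replicate 1 against 187 CPM in replicate 2, a mean of 185 CPM ± 1.63 (SD, n = 2), rank 154. Mir329 at 187 CPM and Mir222 at 185 CPM stood next to it with overlapping ranges. Among the members themselves no ranges overlapped, and each stood at 1.93 times or more the counts of the next in both libraries.

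**Figure D1:**
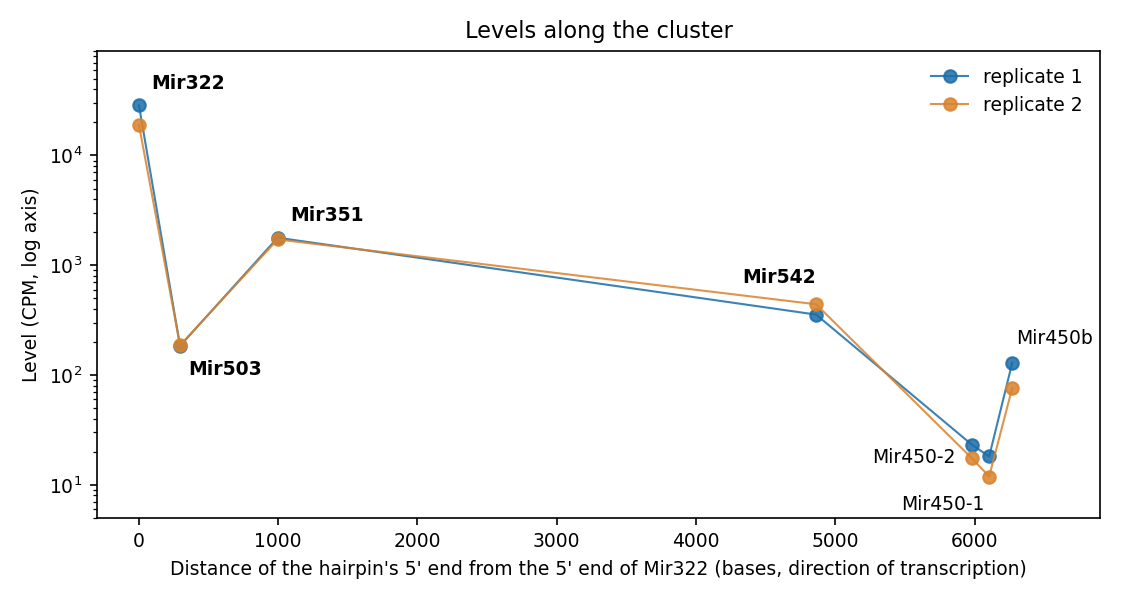
Level of each of the 7 hairpins of the cluster (CPM, log axis) against the distance of its 5′ end from that of Mir322 in bases, for each library, with the 4 members in bold. Mir322 stands at 28629 CPM in replicate 1 against 19003 CPM in replicate 2, Mir503 only 295 bases further on is near 185 CPM in both, and Mir351 and Mir542 lie between.

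The plot of levels along the cluster shows no steady fall with distance, since Mir503 at 295 bases had a lower level than Mir351 at 996 bases and Mir542 at 4862 bases. In unique counts the 3 further hairpins had lower levels than all 4 members. Mir450b had 130 CPM in replicate 1 against 76.4 CPM in replicate 2, Mir450-2 had 23.1 and 17.4 CPM, and Mir450-1 had 18.1 and 11.9 CPM in the same order. Mir450-1 and Mir450-2 share a run of 25 bases, and reads that fit both places stayed uncounted, so their counts are minimum values. The 4 members supplied 99.5% of the unique counts of the 7 hairpins in replicate 1 and also in replicate 2, and their true share may be lower.

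The 4 members were free of the 2 ambiguities that touch many microRNA counts. None shared a run of 20 bases with another annotated hairpin, against 85 of the 352 detected genes, and the longest run shared by any member was 13 bases. No antisense count fell on any member in either library. For Mir322, 0 antisense counts beside 102730 sense counts allowed a share of up to 0.00292% in replicate 1, and for Mir503, the least covered, up to 0.454% in replicate 1 and 0.354% in replicate 2. GC content ran from 50.5% in Mir351 to 54.9% in Mir503, while the 3 Mir450 type hairpins had 30.5% to 36.2%.

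By uniquely mapped counts Mir322 was the most abundant X-linked hairpin in both libraries. Of 142 annotated X-linked hairpins 35 were detected, and the second, Mir652, had 7599 CPM in replicate 1 against 9624 CPM in replicate 2. The 4 members held 55.0% of all X-linked sense counts in replicate 1 (54.8 to 55.2) and 46.3% in replicate 2 (46.0 to 46.5). Mir351 was the sixth and Mir542 the eleventh of the detected X-linked hairpins by mean level. Some X-linked hairpins, among them Mirlet7f-2 and Mir92-2, share 20 bases with another, so their counts are minimum values. The order and the shares on this chromosome are therefore those of unique counts.

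Among hairpins that carry the 7-base seed of miR-322-5p, Mir322 held most of the unique counts. RefSeq placed this seed in 11 hairpins, of which 7 were detected. Mir322 supplied 86.3% of their counts in replicate 1 (86.1 to 86.5) and 73.7% in replicate 2 (73.4 to 73.9), a mean of 80.0% ± 8.95 (SD, n = 2). The other 4 hairpins with this seed, Mir195b, Mir6342, Mir6353 and Mir6419, had 0 counts in both libraries.

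Mir15a was second in this seed group, with 1178 CPM in replicate 1 against 2910 CPM in replicate 2. Its cluster partner Mir16-1 had 1087 CPM in replicate 1 against 715 CPM in replicate 2, and Mir15b had 747 CPM in replicate 1 against 982 CPM in replicate 2. Mir195a stood at 784 CPM in replicate 1 against 824 CPM in replicate 2, beside Mir497 on chromosome 11 at 389 CPM in replicate 1 against 1126 CPM in replicate 2. In unique counts Mir322 thus stood above each of the other hairpins of its seed in both libraries, and by over 6 times above Mir15a. For Mir16-1 and Mir16-2 that order is not settled, since reads of their shared mature sequence were not counted.

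Mir16-1 and Mir16-2 give the same mature 5p sequence, and its reads map to both places and were not counted. The unique counts of Mir16-2, 345 CPM in replicate 1 against 233 CPM in replicate 2, and of Mir16-1 are therefore minimum values. In all, 31.6% of input reads in replicate 1 and 27.0% in replicate 2 mapped to several places, more than the whole seed group held. The share of Mir322 is thus one of uniquely mapped counts, and its true share among products with this seed may be lower. With Mir503 added over bases 2 to 7, the 2 members together held 86.4% of counts of that 6-base seed in replicate 1 and 73.9% in replicate 2. Mir503 alone held 0.552% in replicate 1 and 0.718% in replicate 2.

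**Figure D2:**
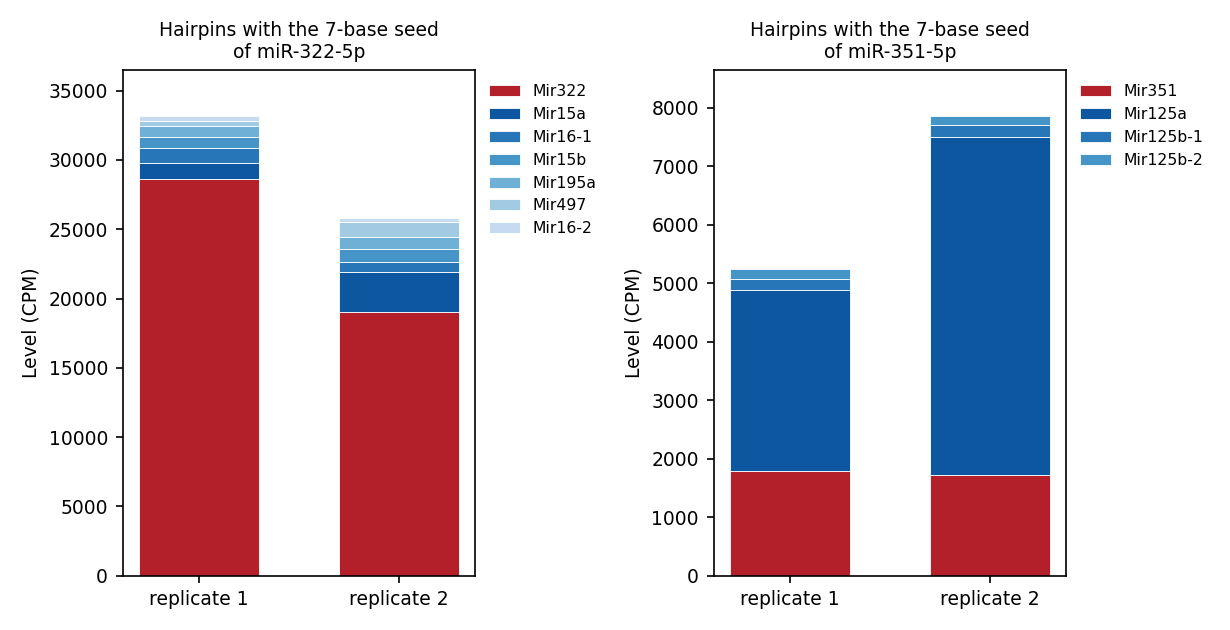
Stacked levels (CPM) of the detected hairpins that carry the 7-base seed of miR-322-5p (left) or of miR-351-5p (right) in each library, with the cluster member in red. Mir322 makes up 86.3% of its stack in replicate 1 and 73.7% in replicate 2, and Mir351 makes up 34.0% in replicate 1 and 21.9% in replicate 2. These are shares of unique counts, and the true shares may be lower.

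Mir351 held a smaller part of the counts of its seed. RefSeq placed the seed of miR-351-5p in 6 hairpins, of which 4 were detected. Mir351 supplied 34.0% of their counts in replicate 1 (33.3 to 34.7) and 21.9% in replicate 2 (21.5 to 22.3). In unique counts Mir125a led with 3093 CPM in replicate 1 against 5781 CPM in replicate 2. Mir125b-1 had 198 CPM in replicate 1 against 207 CPM in replicate 2, and Mir125b-2 had 175 CPM in replicate 1 against 145 CPM in replicate 2. Both are minimum values, since reads of their shared mature 5p sequence were not counted. Whether Mir125a leads this seed group is thus not settled, and the true share of Mir351 may be lower. On the full totals Mir125a differed more between the libraries than Mir351. On totals that leave out Mir122, the log2 ratio, replicate 1 over replicate 2, was -1.22 for Mir125a and -0.26 for Mir351, and that of Mir125b-2 turned to -0.05.

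The members did not move together between the libraries. Each detected gene's reads were set against the library totals in a two-sided exact binomial test, adjusted by Benjamini-Hochberg over all 352 detected genes at a threshold of 0.05. That test sets the libraries against counting error and says nothing of conditions. It called 67.0% of all detected genes and 3 of the 4 members, so the count of members called is near the background. Higher in replicate 1 were 36.6% of detected genes and 2 members, and higher in replicate 2 were 30.4% and 1 member.

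Mir322 was higher in replicate 1, at 1.51 times its replicate 2 level (1.49 to 1.52), with an adjusted p by the exact binomial test too small to be represented. Mir351 stood at 1.04 times its replicate 2 level (1.00 to 1.07), and its exact binomial adjusted p of 0.0474 lay close to the threshold. Mir503 stood at 0.988 times (0.891 to 1.09) and did not pass, with an exact binomial adjusted p of 0.889. Mir542 was lower in replicate 1, at 0.806 times its replicate 2 level (0.750 to 0.865), with an exact binomial adjusted p of 3.31e-09. Of the 3 further hairpins, Mir450b was higher in replicate 1 at 1.70 times its replicate 2 level (1.47 to 1.95). Mir450-1 passed at 1.52 times (1.05 to 2.23) but not with Mir122 out of the totals or with the other scalings, and Mir450-2 at 1.33 times (0.965 to 1.83) did not pass.

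Mir122 bears on the size of these ratios. On the log2(CPM + 1) scale the ratios of replicate 1 over replicate 2 were 0.59 for Mir322, 0.05 for Mir351, -0.02 for Mir503 and -0.31 for Mir542. The median of the 4 was 0.02, beside 0.04 over all detected genes. With Mir122 out of the totals the median detected gene moved by -0.30, and all 4 members were called, beside 71.2% of the genes tested. Mir322 was then the 1 member higher in replicate 1, at 0.27, beside 21.4% of genes. Mir351 at -0.26, Mir503 at -0.33 and Mir542 at -0.63 were lower in replicate 1, beside 49.9% of genes higher in replicate 2. Relative to the median gene, which a change of totals hardly touches, Mir322 stood at 0.55, Mir351 at 0.01, Mir503 at -0.06 and Mir542 at -0.35 with the full totals. The median distance of a detected gene from that median was 0.43. Mir322 lay somewhat beyond this distance, at percentile 61.1 of the detected genes, and the other members lay within it. The call of Mir351 rests on a BH-adjusted p of 0.0474 in the exact binomial test. It was lost with edgeR's TMM (adjusted p = 0.775), with DESeq2's size factors (adjusted p = 0.705), and with a count minimum of 5 (adjusted p = 0.0506) or 0 (adjusted p = 0.0903).

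**Figure D3:**
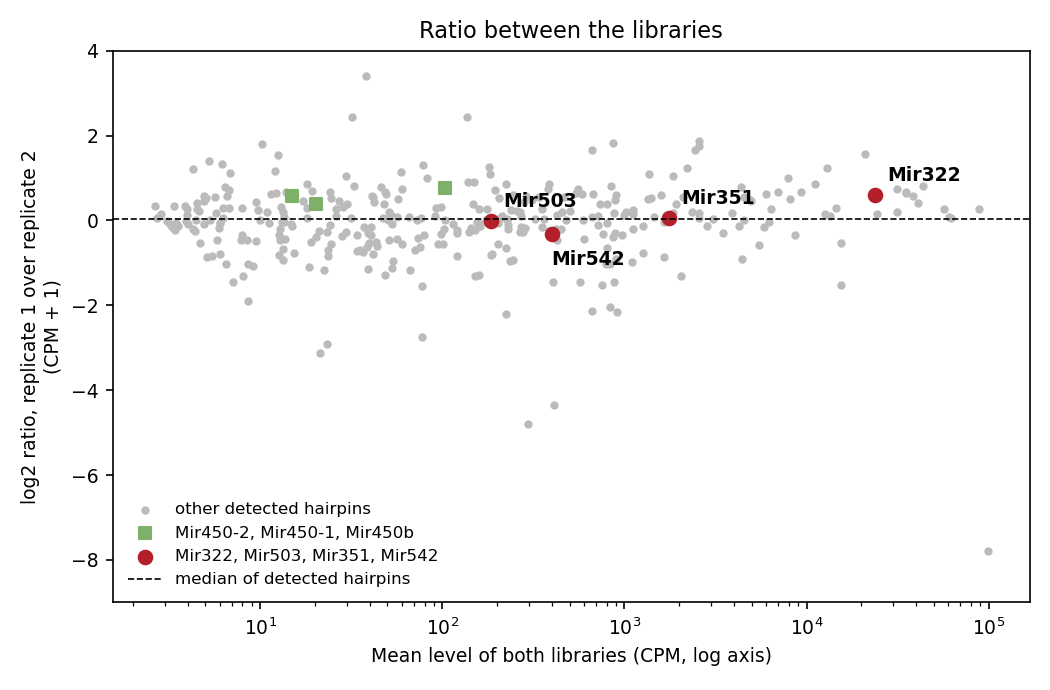
Log2 ratio of replicate 1 over replicate 2 (CPM + 1) against the mean level (CPM, log axis) for the 352 detected hairpins, with the 4 members in red, the Mir450 type hairpins in green and the median as a dashed line. Mir322 lies above the median at 0.59, Mir542 below it at -0.31, and Mir351 and Mir503 close to it.

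Ratios of 1 member to another within a library do not depend on the total. Mir322 had 16.1 times the counts of Mir351 in replicate 1 (15.7 to 16.5) and 11.1 times in replicate 2 (10.8 to 11.3). It had 80.6 times the counts of Mir542 in replicate 1 (76.2 to 85.2) and 43.1 times in replicate 2 (41.2 to 45.1). Against Mir503 it had 155 times the counts in replicate 1 (144 to 168) and 102 times in replicate 2 (95.2 to 109). In all 3 of these ratios the counting intervals of the libraries lie apart, and Mir322 weighed more in replicate 1.

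Without Mir322 the balance was closer between the libraries. Mir351 had 9.68 times the counts of Mir503 in replicate 1 (8.93 to 10.5) and 9.22 times in replicate 2 (8.59 to 9.91), and these intervals overlap. Between the libraries this ratio changed 1.05-fold, with an interval by normal approximation of 0.944 to 1.17. Mir351 over Mir542 was 5.02 in replicate 1 (4.73 to 5.33) and 3.90 in replicate 2 (3.71 to 4.10). Mir542 over Mir503 was 1.93 in replicate 1 (1.75 to 2.12) and 2.36 in replicate 2 (2.18 to 2.57). The widest shift of the 6 ratios was that of Mir322 over Mir542, 1.87-fold higher in replicate 1 (1.74 to 2.01), so the members kept their order but not their proportions.

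**Figure D4:**
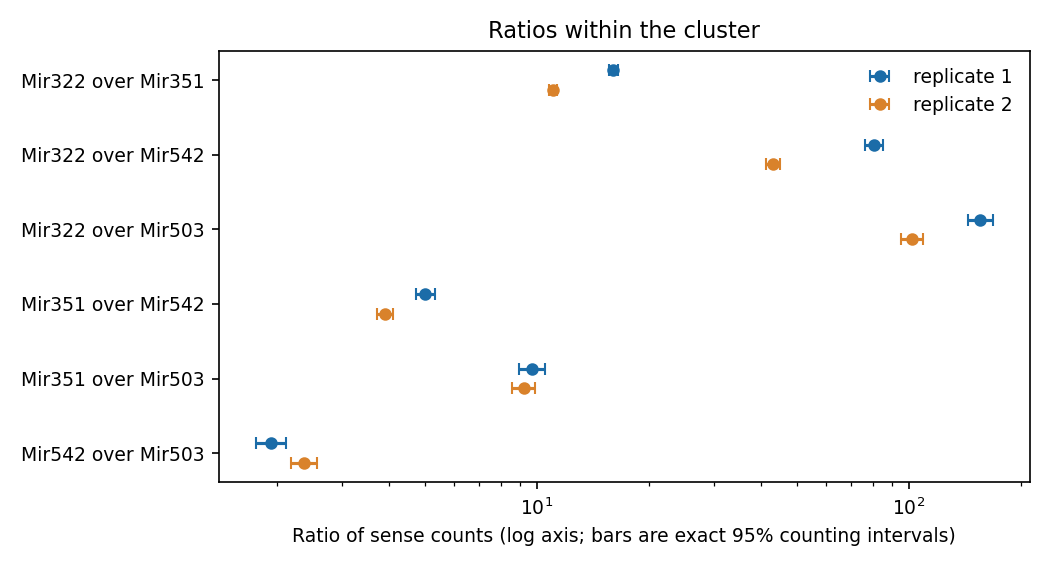
Ratio of sense counts for each of the 6 pairs of members in each library (log axis), with exact 95% counting intervals as bars. The 3 ratios with Mir322 on top lie further right in replicate 1, and Mir351 over Mir503 overlaps between the libraries.

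The highest of the 4 members, Mir322, had 128 times the mean level of the lowest, Mir503. All 7 hairpins of the cluster, from Mir322 to Mir450-1, spanned 1587-fold, but the level of Mir450-1 is a minimum value. The Mir23b cluster, from Mir23b to Mir24-1, spanned 1025-fold and the Mir23a cluster 232-fold, but every detected hairpin of these 2 clusters shares 20 bases with another, so their counts are minimum values and the folds are not bounds. Over detected hairpins the other clusters spanned at most 35.0-fold, in the Mir183 cluster. Outside the X chromosome the next were the Mir143 cluster at 14.9-fold and the Mir17 cluster at 14.3-fold. These folds leave out hairpins under 10 counts in a library, so the full span of a cluster can be wider. In the Mir17 cluster 4 of 6 hairpins were detected, and Mir19a had 3 counts in replicate 1 and 4 in replicate 2. The mean of Mir19a was 0.858 CPM, beside 3055 CPM for Mir17. By these few counts the full span of the Mir17 cluster was wider than that of the 4 members, so a wide span is not particular to them. Of the other X-linked clusters, Mir532 to Mir362 of the Mir188 cluster spanned 18.3-fold, and Mir221 had 3.86 times the level of Mir222. Mir98 had 1.16 times the level of Mirlet7f-2, which is a minimum value. The log2 ratio between the libraries spanned 0.90 within the 4 members and 1.07 over all 7 hairpins of the cluster. Over the detected hairpins of the 12 other clusters this span ran from 0.03 in the Mir144 cluster to 2.32 in the Mir106b cluster.

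**Figure D5:**
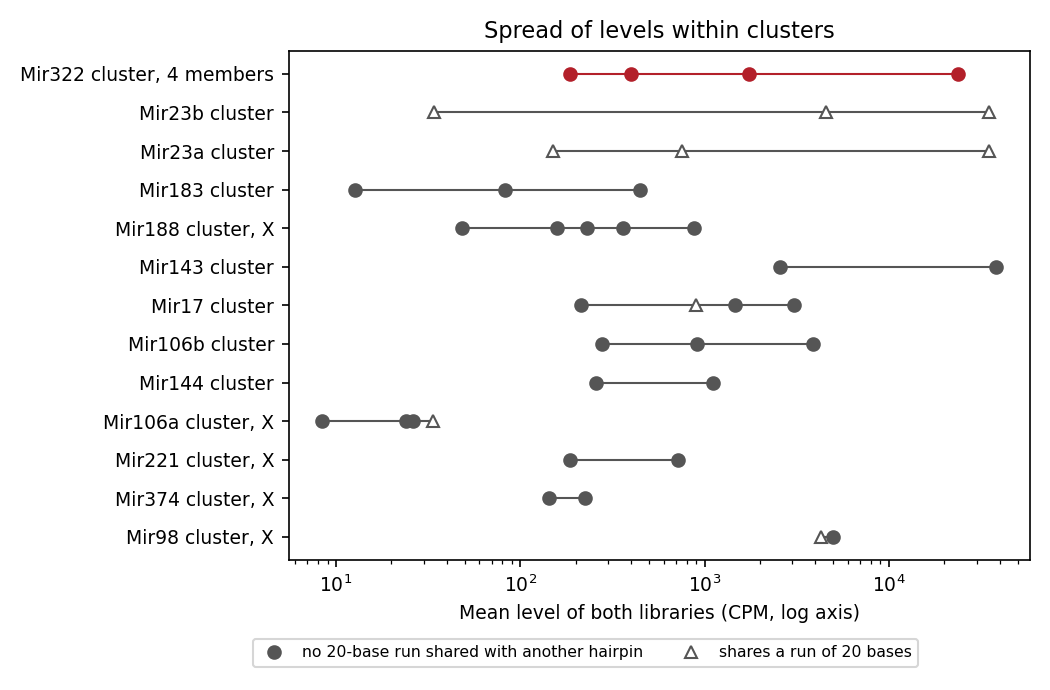
Mean level (CPM, log axis) of the 4 members (red, top) and of each detected hairpin in 12 other clusters (grey). The Mir450 type hairpins are not shown. Open triangles mark hairpins that share a run of 20 bases with another. The 4 members span 128-fold and none is a triangle, while all points of the Mir23a and Mir23b clusters are.

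Levels of markers of other cell types also differed between the libraries, and their part in the ratio of Mir322 was not tested. The smooth muscle pair Mir143 and Mir145a, both detected, summed to 49552 CPM in replicate 1 against 31949 CPM in replicate 2, and the 3 detected leukocyte hairpins to 1956 CPM in replicate 1 against 837 CPM in replicate 2. The 6 striated muscle hairpins summed to 993 CPM in replicate 1 against 0.661 CPM in replicate 2. Nearly all of this was Mir206, with 3540 counts in replicate 1 against 3 in replicate 2. The other 5 share 20 bases with another hairpin, so their counts, with Mir133a-2 and Mir133b at 0 in replicate 1 and all 5 at 0 in replicate 2, are minimum values. The 3 liver hairpins had 949 CPM in replicate 1 against 198911 CPM in replicate 2. Of these Mir194-2 shares 20 bases with another hairpin, so its counts are minimum values.

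The 4 fibroblast hairpins had 280 CPM in replicate 1 against 1105 CPM in replicate 2, a sum carried by Mir214 at 248 CPM in replicate 1 against 1088 CPM in replicate 2. Mir199b, at 23.4 CPM in replicate 1 against 12.6 CPM in replicate 2, and Mir199a-2, at 8.64 CPM in replicate 1 against 4.84 CPM in replicate 2, went the other way. The Mir199 hairpins share 20 bases with one another, so these are minimum values, as is the 0 of Mir199a-1 in both libraries. The kidney hairpin Mir204 had 48.5 CPM in replicate 1 against 35.7 CPM in replicate 2. The order of the libraries in the sums of these 6 lists was the same with Mir122 out of the totals. For the liver list Mir122 was then out of the sum too. The remaining 2 hairpins had 57.2 CPM in replicate 1 against 1692 CPM in replicate 2 on those totals.

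In 4 further lists that order depended on the totals. The neuroendocrine pair Mir375 and Mir7b, known from endocrine and chromaffin cells, had 39064 CPM in replicate 1 against 33089 CPM in replicate 2 on the full totals, and 39099 against 41234 CPM with Mir122 left out. The endothelial Mir126a had 62826 CPM in replicate 1 against 60799 CPM in replicate 2 on the full totals, and 62882 against 75767 CPM with Mir122 left out. The erythroid pair had 1487 CPM in replicate 1 against 1248 CPM in replicate 2 on the full totals, and 1488 against 1555 CPM with Mir122 left out. The brown adipose sum, nearly all of it Mir378a, was 62527 CPM in replicate 1 against 58763 CPM in replicate 2 on the full totals, and 62583 against 73230 CPM with Mir122 left out. Its other hairpin above 100 CPM, Mir193b, had 174 CPM in replicate 1 against 272 CPM in replicate 2 on the full totals. Mir378a and the low Mir365-1 of this list each share 20 bases with another hairpin, so the brown adipose sums are minimum values. No direction is therefore given for these 4 lists. In a whole gland, more cells with a hairpin and more of it per cell cannot be told apart.

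With 2 libraries, likeness to the summed cluster rests on 1 ratio between them and is a description. The sum of the 4 members had a log2 ratio of 0.54, replicate 1 over replicate 2, on the full totals and 0.22 with Mir122 out of them. This sum is mostly Mir322, at 0.59 on the full totals. Mir351 at 0.05, Mir503 at -0.02 and Mir542 at -0.31 were not near it, so the likeness is in effect to Mir322. Of 176 detected hairpins outside the cluster with a mean of at least 100 CPM, the nearest on the full totals were Mir146 at 0.53, Mirlet7f-1 at 0.54 and the X-linked Mir361 at 0.54.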

How the data were processed

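The deposited tables hold raw read counts per microRNA gene, which the authors made on mm10 with the GENCODE M21 annotation, per the text files beside them. Neither aligner nor trimming is given in the sources used here. Every table has 3 count columns, for either strand, sense and antisense, as judged from the values. The sense column was used. The 4 summary lines, which name no gene, stayed out of totals and tests: unmapped, multimapped and featureless reads were 21.3%, 31.6% and 5.73% of input in replicate 1 and 22.8%, 27.0% and 5.99% in replicate 2. Adapter ligation differs in efficiency between small RNAs and was not measured, so levels of different hairpins compare reads, not molecules.

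CPM, means and SDs, exact (Clopper-Pearson) intervals and exact binomial tests were computed with a pseudocount of 1 CPM in log2 ratios. A single group leaves no contrast for edgeR's quasi-likelihood test, and edgeR gave TMM factors only. The binomial test was also run on simulated counts that held counting error alone, so that run says nothing of further spread between libraries. RefSeq mature sequences (GRCm38.p6, the mm10 build) were placed by position in 1022 of 2202 genes, 319 of 352 detected genes and all 4 members. Shared runs of 20 bases were sought in GENCODE M21 hairpins on both strands, leaving out overlapping genes. Named genes were the members, same-strand hairpins within 10 kb, detected hairpins with a member's seed, the neighbours in level, the 3 nearest in library ratio, and fixed marker and cluster lists. In these, Mir660 and Mir497a matched no gene name. The members and lists were chosen with earlier results of these data known. Alternatives were totals without Mir122 (itself then untested) and of all input reads, edgeR 4.0.16 TMM factors, DESeq2 1.42.0 size factors, other count minimums, pseudocounts and seeds, the either-strand column, leaving out hairpins with shared runs, and each library left out. Totals without Mir122 for marker sums, seed groups and the summed members were chosen after seeing the data. The software was R 4.3.3, scipy 1.17.1, numpy 2.4.6 and pandas 2.3.3 under Python 3.11.15, with plots by matplotlib 3.10.9.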

Additional observations from a re-analysis of the deposited data

How the results depend on the processing

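The ratio of Mir351 between the libraries had no stable direction, at -0.26 on the log2 scale with totals without Mir122, -0.0095 with TMM and 0.012 with DESeq2 size factors, the last 2 not past the threshold. Mir503 passed it with totals without Mir122, at -0.33. Mir322 and Mir542 kept direction and call under each alternative run for their ratios. Per input read the 4 hairpins held 1.11%, and Mir322, Mir351, Mir542 and Mir503 had 10123, 749, 171 and 79.3 per 1000000 reads, since most reads are then in the denominator but in no gene. With totals without Mir122, Mir351 had 1964 and Mir503 208 CPM, and with the either-strand column, whose total is smaller, Mir351, Mir542 and Mir503 had 2083, 473 and 220.4 CPM. Counts of calls stayed within 1.5 times of the main ones in every alternative, but 2 members were called, Mir351 no longer among them, with TMM, with DESeq2 size factors and with count minimums of 5 and 0, and with totals without Mir122 75 genes were higher in replicate 1 and 175 in replicate 2, against 129 and 107. No paired analysis was possible because there is 1 group. Depth does not limit the 4 members, each with 661 counts or more in both libraries, but 2 libraries limit any statement about the tissue.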

Other observations

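Hairpins hosted by genes of the Igf axis, a list set beside the cluster for its reported Igf1 receptor target, were low in this tissue at this age. Mir483, in an intron of Igf2, had 116 counts in replicate 1 and 141 in replicate 2, or 32.3 CPM in replicate 1 and 31.0 CPM in replicate 2. Mir675, made from the noncoding H19 transcript, had 4 counts in replicate 1 and 3 in replicate 2, near the limit of 3 counts. Mir322 had 886 times the counts of Mir483 in replicate 1 and 612 times in replicate 2.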
